A study of Mus musculus with 4 samples.

Results

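The longest genes of the mouse genome were examined for regions of open chromatin in cervical motor neurons with and without Hoxa5. Peak intervals of the 4 deposited lists that shared at least 1 bp were joined into regions. A region was kept when its midpoint lay inside a protein-coding gene body of 500 kb or more and over 1 kb from both of its ends. This gave 16795 of 199576 regions (8.42%), in 225 of 226 such genes. The 226 genes ran from 501.754 kb to the 2390.39 kb of Dmd, the dystrophin gene, with a median of 734.553 kb, and 11 were on the X chromosome. They spanned 192.36 Mb in all, overlaps counted in each gene. Skint5, of a gene family expressed in skin and thymus, held no region, and 148 regions lay in more than 1 long gene.

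The assay was ATAC-seq, in which the Tn5 transposase inserts adapters into accessible DNA, and peaks are stretches with more insertions than the background. Cells were cervical motor neurons at embryonic day 12.5, sorted for green fluorescence from the ChAT::GFP reporter, a transgene driven by the choline acetyltransferase gene that all embryos of both groups carried. The groups were 2 control libraries and 2 libraries from Hoxa5-deficient littermates, called mutant below, described as biological replicates. The labels give neither the Hoxa5 allele, nor the controls' alleles, nor the number of embryos in a library, so p-values measure only the spread between these 4 libraries. At Hoxa5 itself each library had a peak in the same 2 regions, and without the allele this does not check the genotype. Where 4 values are given they stand in the order control 1, control 2, mutant 1 and mutant 2.

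Genes of this length are mostly intron, and in vertebrates many of them serve the nervous system as cell adhesion molecules, guidance receptors, ion channels, synaptic scaffolds and splicing regulators. Their transcription takes many hours, their introns hold enhancers of the host gene or of its neighbours, and many have internal promoters that give shorter isoforms. Hoxa5 is a homeodomain transcription factor of the cervical and upper thoracic cord, where Hox5 proteins maintain phrenic motor neurons, the cells that drive the diaphragm.

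Internal promoters were the part of these genes where accessible sequence could be read directly. RefSeq promoter windows of the build GRCm38.p6, from 250 bases before to 50 after a transcription start, were matched for 179 of the 226 genes. Of 145 starts lying inside a long gene, in 87 genes, 97 starts in 66 genes fell in a region present in all 4 libraries, 8 in a region of 1 to 3 libraries and 40 in none. No internal start fell in a region found in both libraries of one genotype and in neither of the other, but only those 8 starts could have done so. Of 145 starts at the outer end of long genes, 125 fell in a region of all 4 libraries. The following windows are shown because the first 4 lay in strong regions of all 4 libraries, while the fifth, in the same gene as the fourth, lay in none. Capitals mark a GC box (GGGCGG on either strand), an E-box (CAGCTG, which reads the same on both strands) or a direct repeat (GTTCA, then 6 bases of any kind, then GTTCA, either strand).
Nav2, plus strand, chr7:49245939-49246238: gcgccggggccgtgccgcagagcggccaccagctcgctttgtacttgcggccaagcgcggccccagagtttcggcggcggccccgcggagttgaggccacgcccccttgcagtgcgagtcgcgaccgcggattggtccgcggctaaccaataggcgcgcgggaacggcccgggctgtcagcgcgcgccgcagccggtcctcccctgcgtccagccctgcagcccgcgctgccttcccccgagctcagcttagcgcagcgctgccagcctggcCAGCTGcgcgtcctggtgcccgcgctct
Rarb, minus strand, chr14:16575427-16575726: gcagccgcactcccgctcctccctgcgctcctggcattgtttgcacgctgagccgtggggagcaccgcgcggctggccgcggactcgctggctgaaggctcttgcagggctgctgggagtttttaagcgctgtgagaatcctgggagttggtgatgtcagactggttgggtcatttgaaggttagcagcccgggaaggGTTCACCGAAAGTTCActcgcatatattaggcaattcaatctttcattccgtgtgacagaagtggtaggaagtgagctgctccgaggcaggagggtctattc
Schip1, plus strand, chr3:68572118-68572417: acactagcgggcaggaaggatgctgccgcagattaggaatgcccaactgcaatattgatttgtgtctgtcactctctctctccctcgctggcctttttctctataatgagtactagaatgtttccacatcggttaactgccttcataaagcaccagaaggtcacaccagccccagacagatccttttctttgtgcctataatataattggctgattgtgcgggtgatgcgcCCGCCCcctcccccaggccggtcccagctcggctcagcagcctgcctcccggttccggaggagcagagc
Ank2, minus strand, open start, chr3:127409009-127409308: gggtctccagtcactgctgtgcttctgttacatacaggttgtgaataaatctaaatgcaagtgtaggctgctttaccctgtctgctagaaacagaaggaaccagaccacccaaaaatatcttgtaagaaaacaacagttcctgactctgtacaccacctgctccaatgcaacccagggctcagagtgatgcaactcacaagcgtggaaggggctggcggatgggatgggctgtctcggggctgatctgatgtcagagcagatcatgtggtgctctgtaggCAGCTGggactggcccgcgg
Ank2, minus strand, start with no region, chr3:126943337-126943636: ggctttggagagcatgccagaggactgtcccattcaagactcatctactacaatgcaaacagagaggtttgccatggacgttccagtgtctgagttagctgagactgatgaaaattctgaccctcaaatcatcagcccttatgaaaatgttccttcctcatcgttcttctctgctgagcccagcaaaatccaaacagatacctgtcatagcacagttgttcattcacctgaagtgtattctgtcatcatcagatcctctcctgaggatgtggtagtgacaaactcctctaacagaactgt

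The Nav2 start, 287 kb inside a gene for a neuron navigator protein of the growing axon, had a GC content of 74.7%. Its region stood at percentiles 98.1 and 98.4 of peak strength in the controls and 98.0 and 99.0 in the mutants, where strength is the rank of −log10 p within a library's own list. Rarb encodes a retinoic acid receptor, and its start 507 kb from the 5′ end held the direct repeat that is known as a retinoic acid response element. The Rarb region stood at percentiles 98.5 and 97.7 in controls against 98.0 and 97.6 in mutants, with no order between the genotypes. This motif was chosen after the sequence was seen. It was in 0.0761% of all 32851 windows and in 2 of the 145 internal starts, the other being a Dmd start with no region. Schip1, whose product binds schwannomin at the axon initial segment, had its internal start 508 kb into the gene, at percentiles 96.7, 95.1, 97.8 and 98.0. The open Ank2 start, of the ankyrin gene that anchors membrane proteins to spectrin, lay 91.3 kb from the 5′ end at percentiles 96.1 and 96.9 in controls against 98.8 and 98.8 in mutants. The start with no region lay 557 kb from that end and had a GC content of 45.0%, against 52.0% at the open one.

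Internal starts with a region in all 4 libraries had a median GC content of 58.7% and a CpG observed-over-expected ratio of 0.514. Those without a region had 46.0% and 0.188, and all windows of the table had 52.7% and 0.384. The GC box was in 41.2% of the open starts, 10% of those with no region and 35.7% of all windows. The E-box was in 24.7%, 22.5% and 16.3%. The homeodomain core TAATTA, searched on both strands, was in 6.19%, 5% and 5.29%. The composite Pbx-Hox sequence TGATTNAT was in 3.09%, 5% and 3.22%. At Dmd an internal start 2234 kb from the 5′ end, near the 3′ end, fell in a region of all 4 libraries at percentiles 71.9, 69.0, 76.0 and 79.0. Sox6, a transcription factor of neural progenitors and interneurons, had 6 internal starts, none of them in a region of all 4 libraries.

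Both mutant libraries had more regions inside long genes than either control. The controls had a peak in 7677 and 7946 of the 16795 regions and the mutants in 10507 and 11202. Expressed per 100 kb of long gene, this was 4.05 and 4.20 in controls against 5.53 and 5.89 in mutants, a ratio of means of 1.38. The difference of 1.58 regions per 100 kb had a two-sided exact permutation p = 0.333, the smallest that the 6 assignments of 4 libraries allow. As a share of each library's regions, the long genes took 7.0% and 7.44% in controls against 8.56% and 8.37% in mutants. Their means were 7.22% ± 0.315 (SD, n = 2) and 8.46% ± 0.138, a difference of 1.25 percentage points with the same exact p = 0.333. The groups did not overlap in either measure, and the design could not pass 0.05.

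The gap between genotypes was smaller in shorter genes. The 763 genes of 200 to 500 kb had 5.55 and 5.52 regions per 100 kb in controls against 6.57 and 7.26 in mutants, a ratio of 1.25. In the 1439 genes of 100 to 200 kb these densities were 5.63, 5.32, 5.96 and 6.58, a ratio of 1.15. The 16872 genes of 2 to 100 kb had 4.64, 4.19, 4.35 and 4.89, a ratio of 1.05 at which the genotypes overlapped (exact permutation p = 0.667). Controls thus had fewer regions per 100 kb in genes of 500 kb or more than in the 3 shorter classes, apart from control 2 in the shortest class (4.20 and 4.19). The difference between length classes was not tested, since it has only these 4 libraries behind it.

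**Figure D1:**
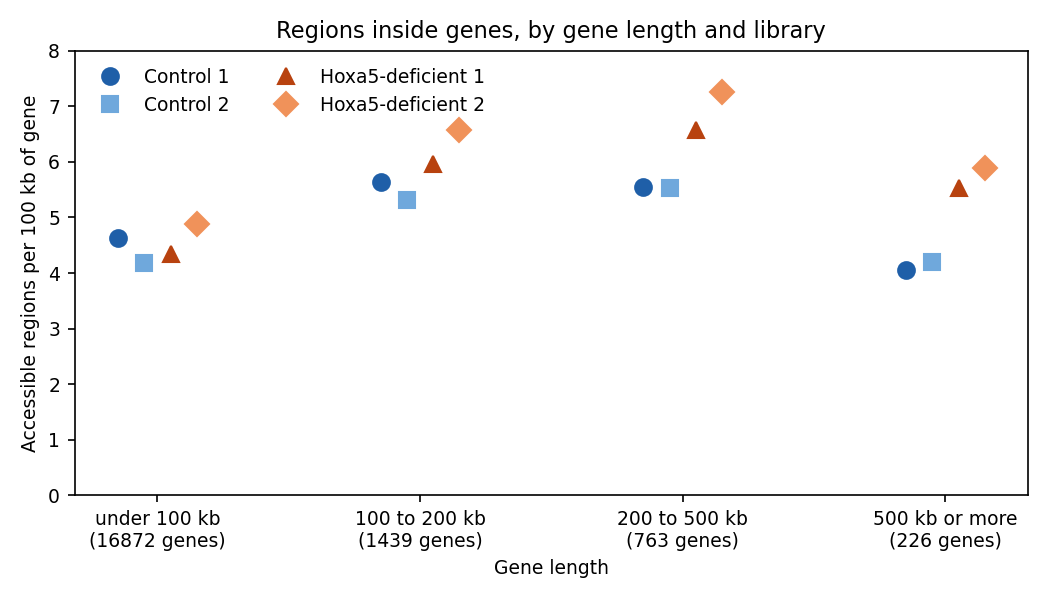
Accessible regions per 100 kb of gene in each of the 4 libraries, for 4 classes of gene length, with 1 point per library. In genes of 500 kb or more the 2 mutant points, at 5.53 and 5.89, lie above the 2 control points, at 4.05 and 4.20, and in genes under 100 kb the 2 groups overlap.

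The lists differed in yield between the genotypes, which touches each count here, while their depths overlapped. Lists held 165866 and 163016 summits in controls against 192771 and 206114 in mutants. The genome-wide tag background recovered from fold and p-value, which scales with depth, stood at 5.43 and 4.39 tags for the controls and at 5.14 and 6.06 for the mutants. Control 2 had the lowest background and the fewest summits, and mutant 2 the highest background and the most summits. Mutant 1 stood below control 1 in this background and had more summits. The part of depth in the counts was not tested. When only the 163016 strongest summits of each library were kept, the long genes had 7537 and 7954 regions in controls against 8395 and 8506 in mutants. The groups still did not overlap, but the ratio fell from 1.38 to 1.09, and for all other regions it was 0.951. Markers of motor neurons (Mnx1, Isl1, Chat and 5 others) had a region in all 4 libraries at 8 of 8 genes, with 27 and 27 regions in controls against 24 and 28 in mutants. Markers of progenitors (6 of 6 genes), interneurons (7 of 7), glia (5 of 5) and sensory neurons (3 of 3) also had a region in every library. Their summed regions were 102 and 89 in controls against 81 and 83 in mutants. Of 9 blood, endothelial and muscle genes 4 had a region in every library, with sums of 19 and 16 against 13 and 14. Accessibility at these genes does not tell cell types apart, and the part of cell mixture in the counts was not tested.

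Most regions in long genes were not shared by all libraries. Of the 16795, 4229 (25.2%) had a peak in all 4 libraries, against 33% of all regions of the genome. Mutant-only regions, with a peak in each mutant and no control, numbered 2508 (14.9%, against 10.3% of all regions). Control-only regions, the reverse pattern, numbered 553 (3.29%, against 3.42%). Crossed regions, found in exactly 1 library of each genotype, numbered 781 (4.65%, against 4.41%), a further 2004 were in 3 libraries and 6720 (40.0%) in a single one. There were 4.54 mutant-only regions for each control-only region inside long genes and 2.89 among all other regions. This ratio was 3.26 in genes of 200 to 500 kb, 2.57 at 100 to 200 kb, 1.79 at 20 to 100 kb and 0.959 in genes under 20 kb. With equal numbers of summits the long genes had 1644 mutant-only and 782 control-only regions, a ratio of 2.10, and other regions had a ratio of 1.31.

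Sharing within a genotype was closer among mutants. The mutants shared 61.2% of the long-gene regions that either had, the controls 51.1%, and pairs of 1 control and 1 mutant from 39.5% to 42.5%. Among all other regions the mutants shared 63.8% and the controls 58.3%. The mutant libraries also had more regions, and sharing at equal numbers of summits was not counted.

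Regions of long genes were weak even where every library had them. Among the regions in all 4 libraries, ranked within each library, the 4229 long-gene regions had median ranks of 31.6 and 33 percent in controls against 38.2 and 38.5 in mutants. The other 61560 regions had medians between 51.0 and 51.7. This lower rank was shared by the 10486 other regions that lay over 100 kb from any gene end, at 33.3, 34.0, 40.4 and 39.6. Shared regions away from genes' ends thus stood higher in both mutants than in both controls inside and outside long genes. Median tags at summits in long genes were 22, 18, 21 and 26 in the 4 libraries, and 29, 25, 28 and 32 at other summits. Strong regions were mostly shared: of 2196 long-gene regions with a percentile of 75 or more in some library, 86.2% were in all 4, 120 (5.46%) were mutant-only and 8 (0.364%) control-only. Of 39563 other regions as strong, 94.4% were in all 4, 850 (2.15%) were mutant-only and 71 (0.179%) control-only.

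The difference varied with distance from gene ends. Long-gene regions lay a median of 183 kb from the nearest end of any protein-coding gene, and other regions 29.3 kb. For the 500 long-gene regions 1 to 10 kb from an end, the mutant to control ratio of mean counts was 1.13, against 1.03 for other regions at that distance. It was 1.30 against 1.16 at 10 to 50 kb and 1.39 against 1.25 at 50 to 100 kb. Beyond 100 kb, where 11864 of the long-gene regions lay, it was 1.42 in long genes and 1.42 for 42014 other regions. There the mutant-only to control-only ratio was 4.78 in long genes and 4.95 elsewhere, so the far regions of long genes were not set apart from far regions in general by these measures. With equal summit numbers the ratio of mean counts beyond 100 kb was 1.11 for both.

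**Figure D2:**
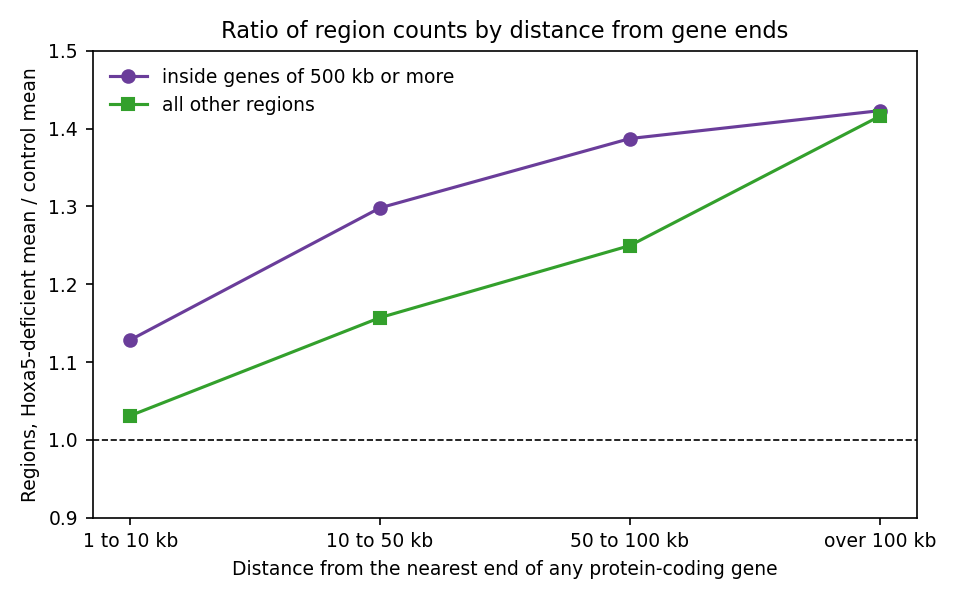
Ratio of the mean region count in the 2 mutant libraries to that in the 2 control libraries (vertical axis) by distance from the nearest protein-coding gene end (horizontal axis, 4 bins), for regions inside genes of 500 kb or more and for all other regions. The long-gene points lie above the others at up to 100 kb, and both series reach 1.42 beyond 100 kb.

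Gene by gene, the mutants were higher in most long genes. Both mutant libraries had more regions than both controls in 186 of 225 genes (82.7%), and no gene had more in both controls. In the other 39 the libraries overlapped. Over all 11749 protein-coding genes with a region inside, 17% had both mutants higher and 7.23% both controls higher, but most of those genes hold few regions. Among the 1191 genes with 20 or more regions the shares were 51.2% and 4.7%, and for the 205 long genes with as many, 171 (83.4%) and 0. With equal numbers of summits both mutants were higher in 95 of 225 long genes (42.2%) and both controls in 29. Over all 11248 genes with a region at that setting, short genes included, the shares were 7.81% and 16.7%. Genes with 20 or more regions were not counted apart there, so this background is not matched for region number. More mutant-only than control-only regions were found in 210 genes and fewer in 5. The median ratio of mean counts was 1.42, with quartiles of 1.24 and 1.72.

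**Figure D3:**
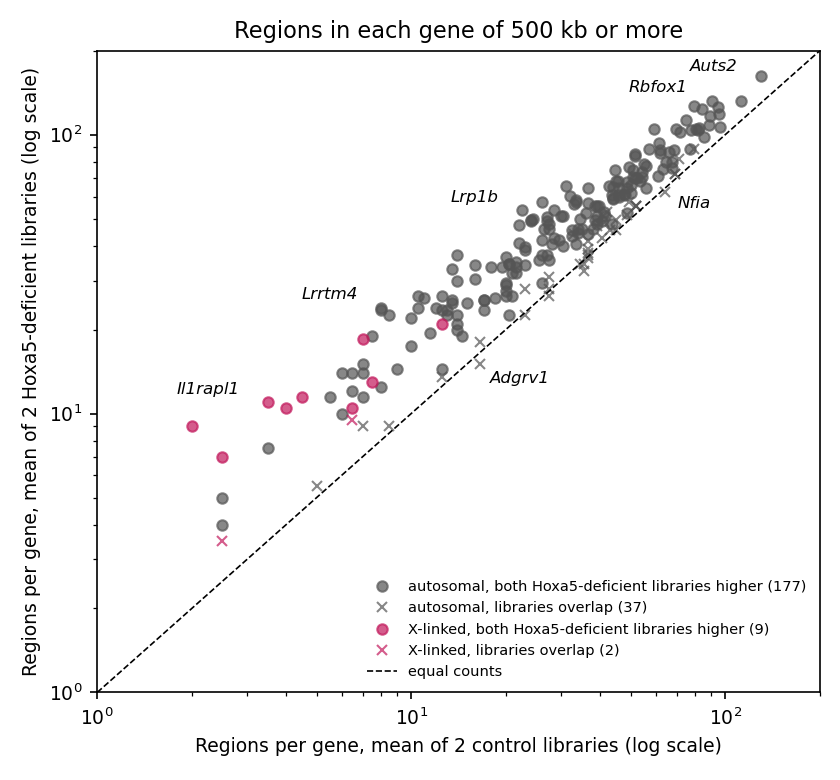
Regions in each of the long genes, as the mean of the 2 control libraries (horizontal, log scale) against the mean of the 2 mutant libraries (vertical, log scale), with 1 point per gene. Most points lie above the dashed line of equal counts, circles are the 186 genes with both mutants higher, and X-linked genes sit at the low end.

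The genes differed widely in how densely they were occupied. The median gene had 69.5 regions, or 8.37 per 100 kb (quartiles 5.33 and 12.9), and 3.59% of its bases lay in a region. Auts2, a regulator of neuronal transcription and the actin cytoskeleton, had the most, 242 in 1105.89 kb (chromosome 5, 131437333 to 132543220). Its regions numbered 139 and 121 in controls against 150 and 176 in mutants, with 74 in all 4 libraries, 30 mutant-only and 8 control-only. Nav2 was the densest at 25.3 per 100 kb, with 96 and 96 regions in controls against 99 and 114 in mutants. Slit3, a secreted ligand of Robo receptors, had 23.8 per 100 kb and overlapping counts of 83 and 76 against 81 and 96. Camta1, a calcium-responsive transcription factor of neurons, had 115 and 110 regions against 130 and 134. Zfhx3, a zinc finger homeobox factor expressed in maturing neurons, had 81 and 84 against 102 and 109. In 33 genes the density was above 15 per 100 kb and in 21 genes below 3.

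X-linked genes lay at the sparse end. Of the 21 genes below 3 per 100 kb, 9 were on the X chromosome, where the 11 long genes had a median of 1.82 per 100 kb (0.967 to 3.71) against 8.56 on autosomes. Dmd had 38 regions over its 2390.39 kb, with 11 and 14 in controls against 21 and 21 in mutants and a stretch of 628 kb with none. Pcdh11x, a protocadherin, had 2, 3, 3 and 4 regions in the 4 libraries, and its controls and mutants overlapped at 3. Il1rapl1, a synaptic receptor of the interleukin-1 receptor family, had 3 and 4 against 6 and 16. Its relative Il1rapl2 had 6 and 8 against 17 and 20. Frmpd4, a postsynaptic scaffold, had 6 and 7 against 9 and 12, and the autosomal Cpq, a peptidase, had 2 and 3 against 5 and 5. Of all 192 long-gene regions on X, the controls had 52 and 66 and the mutants 104 and 146, a ratio of 2.12, with 48 mutant-only and 6 control-only. For other X-linked regions the ratio was 1.25, but these lay a median of 23.2 kb from a gene end, against 162 kb. The labels do not give the sex of the embryos in each library, so sex and genotype cannot be told apart on this chromosome.

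Sparse genes showed larger ratios than dense ones. The 57 genes with the fewest regions per 100 kb (0.967 to 5.48, including the 11 X-linked genes) had 643 and 716 regions in controls against 1148 and 1203 in mutants, a ratio of 1.73. In the densest 57 genes (12.9 to 25.3) the counts were 3471, 3465, 4162 and 4556, a ratio of 1.26. Mutant-only regions outnumbered control-only ones 349 to 45 in the sparse genes and 808 to 252 in the dense ones. Over the 205 genes with 20 or more regions, Spearman's rho between density and ratio was −0.49, and between gene length and ratio 0.18. These genes share the 4 libraries, and density and ratio share their counts, so no p is given.

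Transcription and chromatin factors formed the most densely occupied of the 13 gene groups compared. The 21 long genes of this group, which also holds the cytoskeletal Nav2, had 7.79 and 7.68 regions per 100 kb in controls against 9.20 and 9.87 in mutants. In all 4 libraries were 31.1% of their regions, and the mutant-only to control-only ratio was 2.74, with both mutants higher in 17 of 21 genes. Over all long genes both mutants were higher in 186 of 225 (82.7%), the share to set beside each group count below. With equal numbers of summits this was 95 of 225, and the groups were not counted at that setting. The group's median gene ratio was 1.28, against 1.42 over all long genes. Npas3, a neural bHLH-PAS factor, had 75 and 81 regions in controls against 93 and 115 in mutants. Sox5, which times neuronal differentiation, had 68 and 67 against 87 and 73, with 15 mutant-only and 8 control-only regions. Nfia, a nuclear factor of gliogenesis, had 63 and 66 against 67 and 58, overlapping, and more control-only than mutant-only regions, 10 against 9.

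Signalling and RNA-binding genes came next in density. The 19 genes of kinases, phosphatases and cyclic nucleotide signalling had 5.57, 5.53, 7.02 and 7.53 regions per 100 kb and both mutants higher in 14. Ptprn2, a phosphatase-like protein of secretory vesicles, overlapped with 77 and 65 against 73 and 91. Pde4d, a cAMP phosphodiesterase, had 61 and 63 against 85 and 91, and Ptprg, a receptor phosphatase, 69 and 66 against 73 and 79. The 5 RNA-binding genes had 5.37, 5.07, 7.07 and 7.69 per 100 kb and all had both mutants higher. Rbfox1, a splicing regulator of neurons, had 92 and 90 regions in controls against 131 and 134 in mutants, with 39 mutant-only and 7 control-only. Celf2, another splicing regulator, had 52 and 57 against 69 and 78, and Rbms3 48 and 40 against 60 and 70.

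Adhesion molecules of the immunoglobulin superfamily had 5.0 and 5.15 regions per 100 kb in controls against 6.72 and 7.46 in mutants, and both mutants were higher in 11 of 12 genes. The IgLON genes Lsamp, Ntm and Opcml encode GPI-anchored proteins of the neuronal surface. Lsamp had 82 and 77 regions in controls against 124 and 130 in mutants, with 31 mutant-only and 4 control-only. Ntm had 88 and 89 against 101 and 116, and Opcml 64 and 68 against 84 and 89. The 6 contactins and contactin-associated genes were far sparser, at 1.94, 2.2, 3.16 and 3.37 per 100 kb, with both mutants higher in 5. Cntnap2, which clusters potassium channels beside the node of Ranvier, had 47 and 56 regions against 84 and 84, of which 27 were mutant-only and 1 control-only. Cntn5 had 31 and 34 against 43 and 48, and Cntnap5a 22 and 19 against 30 and 39.

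Cadherins, protocadherins and catenins (10 genes) had 3.38 and 3.29 regions per 100 kb in controls against 4.68 and 4.94 in mutants, and both mutants were higher in 8. Cadherins are known for sorting motor neurons into pools and columns. Cdh13, a GPI-anchored cadherin, had 90 and 74 regions in controls against 100 and 108 in mutants. Ctnna2, the neuronal alpha-catenin, had 49 and 48 against 70 and 65, and the giant cadherin Fat3 had 56 and 51 against 66 and 70. Cdh18, a type II cadherin, had 11 and 12 against 19 and 20. Synaptic adhesion genes (20) had 3.13, 3.34, 4.63 and 4.84 per 100 kb, with both mutants higher in every one of them and 297 mutant-only against 51 control-only regions. Over all long genes both mutants were higher in 82.7%, with 2508 mutant-only against 553 control-only regions. Nrxn3, a presynaptic neurexin, had 88 and 101 regions against 124 and 128. The teneurins Tenm3 and Tenm2, which bind latrophilins across the synapse, had 95 and 96 against 116 and 122, and 79 and 65 against 98 and 106.

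Guidance genes (11) had 4.51 and 5.19 regions per 100 kb in controls against 6.56 and 6.88 in mutants, with both mutants higher in 7. Dab1, the intracellular adaptor of Reelin signalling, had 81 and 88 regions against 123 and 124, and 33 mutant-only against 7 control-only. Robo1, a receptor for Slit proteins, had 70 and 80 against 111 and 115, with 24 mutant-only and 3 control-only. In the ligand gene Slit3, by contrast, the libraries overlapped. Whether the receptor and ligand genes differ was not tested. Nrg1, a neuregulin that motor axons supply to Schwann cells, had 30 and 37 regions in controls against 56 and 59 in mutants.

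The 18 ion channel genes had 3.24 and 3.38 regions per 100 kb in controls against 5.04 and 5.27 in mutants, 196 mutant-only and 24 control-only regions, both mutants higher in 15 and a median gene ratio of 1.61. Asic2, a proton-gated channel, had 65 and 58 regions against 83 and 104, with 21 mutant-only and 0 control-only. Dpp6, an auxiliary subunit of Kv4 potassium channels, had 50 and 41 against 61 and 76. Kcnma1, the BK channel, had 36 and 49 against 55 and 76. The 7 neurotransmitter receptor genes had 2.10, 2.40, 3.81 and 3.65 per 100 kb, a median gene ratio of 1.81 and both mutants higher in all 7. Grid1, a delta glutamate receptor, had 50 and 47 regions against 69 and 60, and the metabotropic receptor Grm7 12 and 12 against 27 and 21. Gabrg3, a GABA-A receptor subunit, had 8 and 8 against 19 and 28.

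Synaptic scaffold and release genes (13) had 4.20, 4.43, 5.90 and 6.39 regions per 100 kb and both mutants higher in 11. Dlg2, the scaffold PSD-93, had 51 and 68 regions in controls against 102 and 108 in mutants. Magi2, a scaffold with guanylate kinase and PDZ domains, had 50 and 53 against 83 and 87, with 28 mutant-only and 0 control-only. Rims1, of the presynaptic active zone, had 11 and 6 against 21 and 24. The 5 genes of the dystrophin complex and muscle had 1.41, 1.62, 2.38 and 2.43 per 100 kb, the lowest of the 13 groups. The group includes genes of the sarcoglycans, which link dystrophin to the muscle membrane. Sgcd had 24 and 29 regions against 43 and 49, and Sgcz had 8 and 13 against 28 and 25. Lpp, a focal adhesion protein, overlapped with 39 and 34 against 39 and 39. The 25 fragile site and metabolic genes, grouped for length and not for neuronal function, had 3.93, 4.15, 5.30 and 5.83 per 100 kb, and both mutants were higher in 21. Wwox, an oxidoreductase, had 87 and 92 regions against 109 and 125, the glypican Gpc6 83 and 88 against 96 and 100, and Lrmda 77 and 85 against 96 and 114. No group had a gene with both controls higher, as in the 226 long genes at large. The 13 groups hold 171 of the long genes.

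**Figure D4:**
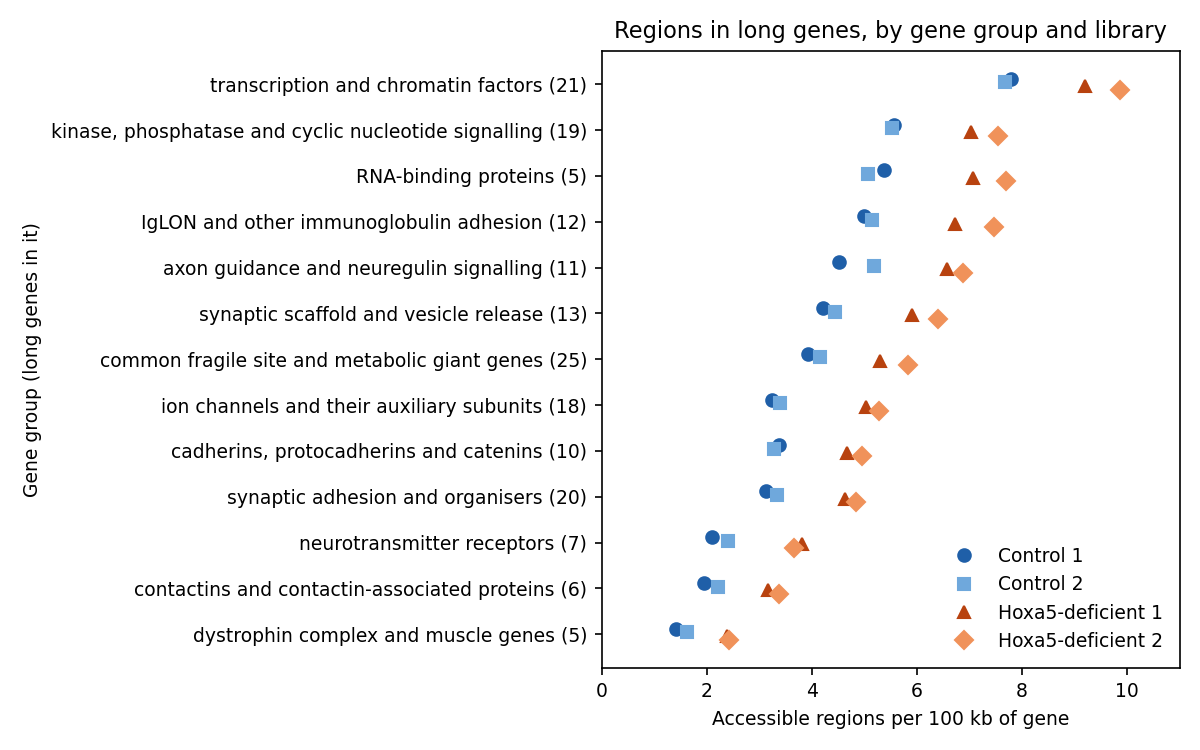
Accessible regions per 100 kb of gene (horizontal axis) in each of the 4 libraries, for 13 groups of long genes (vertical axis, number of long genes in parentheses). In every group both mutant points lie to the right of both control points, from 1.41 to 2.43 per 100 kb in dystrophin complex and muscle genes to 7.68 to 9.87 in transcription and chromatin factors.

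The largest ratios among genes with 20 or more regions belonged to Lrrtm4, Gabrg3, Rims1 and, tied at 2.64, Il1rapl2 and Nrg3. Lrrtm4, a postsynaptic leucine-rich repeat protein that binds neurexins and glypicans, had 8 and 8 regions in controls against 24 and 24 in mutants, a ratio of 3, and 11 mutant-only regions. Nrg3, a neuregulin, had 10 and 18 against 36 and 38. A ratio above 2 was found in 24 genes. Clstn2, a synaptic calsyntenin, had 24 and 28 regions against 53 and 62, and Lrp1b, a very large lipoprotein receptor relative, 22 and 23 against 52 and 55. At the other end 8 genes had a ratio of 1 or less. Adgrv1, the very large adhesion receptor of the stereocilia, had 23 and 10 regions in controls against 15 and 15 in mutants, a ratio of 0.909 that rests on control 1. Rad51b, a recombination gene, had 36 and 35 against 36 and 29, and Psd3 had 26 and 29 against 25 and 28. In these 3 genes the libraries of the 2 genotypes overlapped.

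**Figure D5:**
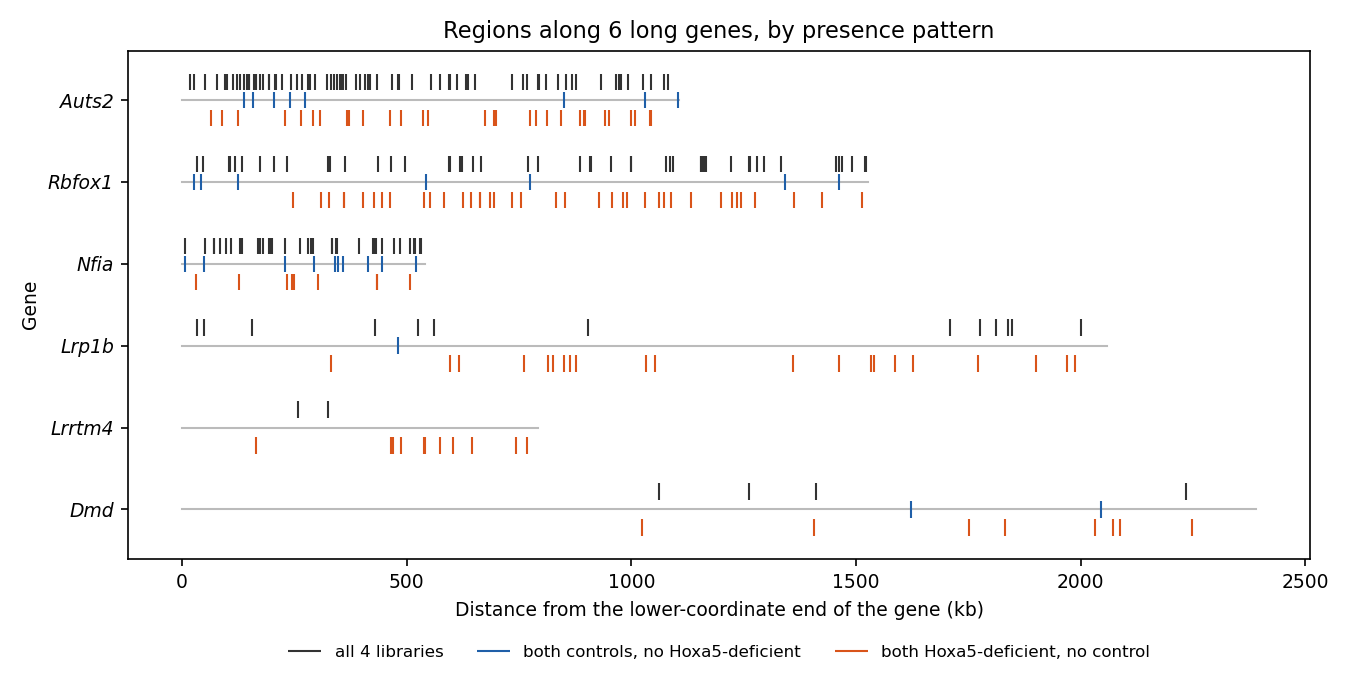
Positions of regions along 6 long genes, as distance in kb from the end with the lower coordinate, with 1 row per gene and separate tick levels for regions in all 4 libraries, control-only and mutant-only regions. Auts2 and Nfia are filled along their length, Dmd is nearly empty, and Lrp1b and Lrrtm4 hold more mutant-only than all-library regions.

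Along the gene, regions became denser towards the 3′ end. In 179 genes with a known strand, 13521 regions gave 7.75 per 100 kb in the first of 10 equal bins from the 5′ end, 8.47 in the fifth and 10.3 in the last. The 20% of the gene nearest the 5′ end held 17.2% of regions and the 20% nearest the 3′ end held 23.2%, and 54.4% lay on the 3′ side of the midpoint. Each library had this order, with 17.0% and 17.2% of regions in the first 20% in controls against 17.2% and 17.5% in mutants. The first 20% of the gene held similar shares of these patterns: 16.6% of regions in all 4 libraries, 16.5% of control-only and 16.7% of mutant-only regions. Over the 10 bins the mutant-only to control-only ratio was not even. It was 4.56 in the first bin and 3.52 in the last, with extremes of 6.26 in the third (194 and 31) and 3.46 in the seventh (197 and 57). This variation along the gene was not tested. Genes differed from the average, and in 51 of 163 genes with 20 or more regions the first 20% held over 20% of regions. By this measure the kainate receptor gene Grik2 was highest with 42.9%, and the zinc finger gene Zbtb20 lowest with 3.61%.

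Near the 5′ end the pattern of sharing changed within a short distance. From 1 to 10 kb from the 5′ end there were 161 regions, 9.99 per 100 kb, of which 44.7% were in all 4 libraries, 11 were mutant-only and 10 control-only. From 10 to 25 kb there were 7.15 per 100 kb, 18.2% of them in all 4 libraries, with 32 mutant-only and 3 control-only. From 25 to 50 kb the density was 8.94, with 62 mutant-only and 14 control-only. At the 3′ end the same distances gave 8.81, 10.9 and 12 regions per 100 kb. Neighbouring regions lay a median of 5.6 kb apart, 46.3% of them within 5 kb of the next, and the median gene had a longest empty stretch of 63.4 kb.

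The strongest regions shared by all libraries often belonged to a gene nested in the long one. The first lay in Prkg1, a cGMP-dependent kinase gene, at chr19:31082584-31083363, 0.133 kb from an end of the nested Cstf2t, at percentiles 99.9, 99.7, 99.6 and 99.6. Another lay in Macrod2 at chr2:140671055-140671744, at the nested adhesion gene Flrt3. In Astn2, an astrotactin gene of neuronal migration, the strongest lay at chr4:65604523-65605826 beside the nested Trim32. A total of 231 regions lay inside a nested gene or within 1 kb of it, at a median of 10.7 kb from the nearest gene end. Of these regions 37.2% were in all 4 libraries, and their mutant to control ratio was 1.16. For the other 16564 these values were 25% and 1.39.

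For regions found in a single genotype, the lower of the 2 percentiles set the order. Lrp1b held the strongest mutant-only region, chr2:40926521-40927396, 332 kb from the nearer gene end, at percentiles 89.8 and 90.6. Its deposited fold enrichments over background were 15.8 and 19.1. The next lay in Ank2 (chr3:127391039-127391989, 88.3 and 89.5), 109 kb from the 5′ end, beyond the open internal start at 91.3 kb. Others lay in Clstn2 (chr9:97580171-97580988, 87.8 and 90.3) and in Nrg1 (chr8:32763742-32764670, 89.3 and 87.2). The control-only regions were weaker, with a median lower percentile of 21.5 against 27.4 for mutant-only ones. The strongest control-only regions also stood lower, but came from 553 regions against 2508, and percentiles are ranks within lists of unlike length. Foxp2, a transcription factor of motor circuits, held the first at chr6:15182818-15183323, 259 kb from the nearer end, at percentiles 87.0 and 81.7. Sox6 held the next (chr7:115721507-115722377, 81.2 and 79.6), then Cntn5 (chr9:10233115-10233888, 75.1 and 74.1) and Macrod2 (chr2:140839857-140840281, 76.2 and 72.5). Of these host genes Foxp2 had 26 and 25 regions in controls against 35 and 36 in mutants, and Sox6 46 and 41 against 47 and 49, so a strong control-only region stood in genes with more regions in the mutants.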

How the data were processed

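ATAC-seq libraries of 2 control and 2 Hoxa5-deficient samples were each represented by 1 peak list, called per library. The submitters' processing notes list MACS2 2.2.4, SAMtools 1.9, Bowtie2 2.3.4.3, FastQC 0.11.9 and mm10; parameters, the Tn5 shift and read depth are not given in the sources used here. Each deposited row gives a score capped at 1000, a fold ratio over background, and −log10 of the p-value and q-value at the summit. The authors' lists start at a −log10 p of 2.00.

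Intervals on assembled chromosomes were merged and assigned to gene bodies of a RefSeq table (GRCm38.p6, 21883 protein-coding genes used) with Python 3.11.15, pandas 2.3.3 and scipy 1.17.1. Coordinates are 1-based. Strand came from the RefSeq promoter table, and 47 long genes had none. Tag pileup was solved from fold and p, for from 95.3% to 97.5% of summits, within a tolerance of 0.001 in −log10 p. Merging and assignment were tested on simulated intervals. Library shares and densities were compared by exact permutation over 4 libraries; regions of a gene are not independent and were only counted. The regions, gene groups, motifs and tests were chosen with earlier results of these data known. Genes named were the 6 with the most regions, the 5 densest and 5 sparsest, the 6 per direction with most group-specific regions, 3 per gene group, hosts of the 4 strongest group-specific regions per direction, and the 4 largest and 4 smallest ratios; others were chosen after their values were seen. Same-numbered control and mutant libraries share only a number. Some genes meeting the naming criteria are not reported here.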

Additional observations from a re-analysis of the deposited data

How the results depend on the processing

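The share of regions in long genes and their density were higher in both mutants than in both controls under each of 14 alternatives, with differences of 0.641 to 1.74 percentage points and 0.359 to 1.76 regions per 100 kb. With the replicate number as a block the differences stayed 1.25 and 1.58 (exact sign-flip p = 0.5, the smallest 2 pairs allow), and same-numbered libraries did not share more regions than other pairs. Mutant-only regions made up 81.9% of group-specific ones (2508 and 553). This was 85.0% (1797 and 318) at −log10 q of 5 or more, 67.8% (1644 and 782) with equal numbers of summits, and 86.0% (1031 and 168) in genes of 1000 kb or more. Leaving out 1 library gave 61.9% to 85.6%, the low values being 61.9% without control 1 (3166 mutant-only and 1949 control-only) and 63.5% without control 2 (3355 and 1932). Those without a mutant were 85.6% (4763 and 804) and 84.0% (4198 and 801). With 1 library of a genotype left, a peak in that library alone met that genotype's pattern. These values thus rest on a looser criterion than the 81.9%. Genes with both mutants higher numbered 186, with 95 at equal summit numbers and 58 of 59 genes of 1000 kb or more. With 1 library left out they numbered 190 to 207, the remaining library standing alone for its genotype. The share on the 3′ side of the midpoint was 54.4%, and 55.3% in genes of 1000 kb or more. Without the X chromosome, an alternative added after the data were seen, the differences were 1.23 percentage points and 1.64 per 100 kb, with 2460 mutant-only and 547 control-only regions (81.8%), both mutants higher in 177 of 214 genes and 54.3% on the 3′ side. Apart from the looser criterion with 1 library left out, the cause of these shifts was not tested. In the 4 libraries 57.6% to 63.4% of long-gene summits had the genome-wide background as their local background, with medians of 18 to 26 tags, and how depth limits such regions was not tested.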
